A study of Mus musculus with 6 samples.

Results

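The 9 genes described here belong to the major histocompatibility complex (MHC) class I pathway and were measured in embryonic interneurons with and without CCP1. They are H2-D1, H2-K1, H2-Q4, H2-T23, H2-T22, B2m, Tap1, Tap2 and Tapbp. These are 9 of the 29606 loci in the table of expression, and each was found by its symbol in the gene column. They were chosen because H2-D1 and H2-K1 differed between the genotypes in these libraries, so the values of the 9 genes in the 2 genotypes are a description. Fold changes, standard errors and calls printed for them come from the fit across all loci and are not read as a test of these genes. RNA came from mouse embryos at E13.5, from cells of the ganglionic eminences that were sorted by FACS for the GFP of a Cre-GFP transgene that Dlx5/6 control sequences drive in the GABAergic lineage of the ventral forebrain. There were 3 WT libraries, of genotype CCP1 Wt/Wt with Dlx5,6 CRE GFP, and 3 CCP1 cKO libraries, of genotype CCP1 lox/lox with the same transgene, so the controls carry Cre and GFP too. Cre removes exons of Agtpbp1, the gene of the deglutamylase CCP1, which shortens glutamate chains on tubulin and other proteins. Embryos of both sexes were used, and the legends of the study give 3 embryos per group from different females.

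The labels name the strain of every sample as MF1, whereas by the methods the floxed allele was made in 129S2/SvPas embryonic stem cells and bred to C57BL/6N mice. No source used here gives the strain of origin of the H2 genes in a library, and such a difference and the genotype cannot be told apart. Reads were aligned to the build mm10, whose H2 genes are those of C57BL/6J. How reads from H2 genes of another strain align to it was not tested.

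MHC class I molecules display short peptides from inside the cell at its surface. A heavy chain (H2-D1, H2-K1 and their relatives in the mouse) pairs with the light chain beta-2 microglobulin (B2m), the TAP transporter carries peptides from the cytosol into the endoplasmic reticulum, and tapasin (Tapbp) holds the empty molecule at the transporter until a peptide is bound. CD8 T cells and natural killer cells read the result. Neurons express class I genes at a low level, and in the mouse the classical heavy chains are known for roles in synapse remodelling. Interferons induce the pathway through factors that bind its promoters.

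The promoters of the heavy chains H2-D1, H2-K1 and H2-Q4 and of B2m are shown. H2-D1 and H2-K1 had the largest differences between the genotypes, and H2-Q4 is a close relative that had none of that size. B2m encodes the light chain that pairs with these heavy chains. Each is the 200 bases before a transcription start, read 5′ to 3′ on the strand of the gene from RefSeq on GRCm38.p6. Capitals mark 4 motifs found by their letters on either strand. They are the kappa B site TGGGGATTCCCCA, taken as the longest inverted repeat around a free centre base that the windows of H2-D1 and H2-K1 share, the interferon response core TTTCNNTT, the letters TGACG, which occur in the X2 element of class I promoters but were marked wherever they stood, and the CCAAT box.
H2-D1: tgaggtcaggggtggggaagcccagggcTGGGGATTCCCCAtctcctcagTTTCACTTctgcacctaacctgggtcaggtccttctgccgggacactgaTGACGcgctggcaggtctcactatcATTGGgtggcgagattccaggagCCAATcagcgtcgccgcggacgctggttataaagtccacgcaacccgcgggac
H2-K1: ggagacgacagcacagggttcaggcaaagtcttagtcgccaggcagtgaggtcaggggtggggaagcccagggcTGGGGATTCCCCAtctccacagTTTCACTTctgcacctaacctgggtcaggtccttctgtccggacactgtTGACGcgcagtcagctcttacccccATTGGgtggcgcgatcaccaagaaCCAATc
H2-Q4: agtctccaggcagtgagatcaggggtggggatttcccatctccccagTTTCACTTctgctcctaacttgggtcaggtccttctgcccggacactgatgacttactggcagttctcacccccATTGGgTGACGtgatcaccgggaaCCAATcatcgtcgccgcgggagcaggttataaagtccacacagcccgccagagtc
B2m: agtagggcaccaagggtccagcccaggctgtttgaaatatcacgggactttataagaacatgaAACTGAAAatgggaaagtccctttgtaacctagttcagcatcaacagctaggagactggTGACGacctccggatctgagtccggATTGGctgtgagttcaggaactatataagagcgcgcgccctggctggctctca
The windows are chr17:35262894-35263093 on the plus strand for H2-D1, chr17:34000334-34000533 on the minus strand for H2-K1, chr17:35379417-35379616 on the plus strand for H2-Q4 and chr2:122147487-122147686 on the plus strand for B2m. The RefSeq start of H2-D1 lies at the deposited start of its locus, 35263094. The GENCODE span of H2-D1 given below starts further upstream, at 35262730, so this window lies inside that span. Distances to the start here are those to the RefSeq start. Of the 9 genes, 8 had a promoter in the RefSeq table, and among these only H2-D1 and H2-K1 held the kappa B letters, starting 172 and 126 bases before the transcription start. Since the site was read from the windows of these genes, its presence there and its rarity elsewhere follow from how it was defined. Its letters stood in 4 of 32851 promoter windows of the same length (0.0122%), which belong to H2-D1, H2-K1 (2 starts) and H2-Q6. The other motifs are common, with TTTCNNTT in 17%, TGACG in 15.7% and CCAAT in 29.3% of all windows. The H2-Q4 window held a stretch with 1 mismatch to the kappa B letters, starting 175 bases before its transcription start, and the nearest stretches of H2-T22 and B2m had 3 and 4 mismatches. H2-Q4, H2-T22 and B2m held the other 3 motifs, though not all in the same order: TGACG lies upstream of both CCAAT matches in H2-D1 and H2-K1, and between them in H2-Q4. The H2-D1 window shared 138 of 154 aligned bases (89.6%) with that of H2-K1 and 149 of 174 (85.6%) with that of H2-Q4. A match of letters is a description and does not show that a factor bound there. H2-Q6, a heavy chain gene with the kappa B letters in its promoter, was listed at 0 in every library.

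Expression is given as FPKM, a fragment count divided by transcript length and library size, which allows levels to be compared between genes. Where 3 values of a genotype follow each other, they are those of replicates 1, 2 and 3 in this order. In WT interneurons the values spanned from 19.0 ± 1.11 FPKM for the locus that Tapbp shares with Zbtb22 (mean ± SEM, n = 3) to nearly none for Tap2. By the authors' isoform values for WT, Tapbp held 5.002 FPKM of this locus and Zbtb22 14.0 FPKM. The order given here places the locus as a whole, not Tapbp alone. Next came H2-Q4 (4.83 ± 0.283 FPKM), H2-D1 (4.61 ± 0.288 FPKM) and B2m (3.21 ± 0.274 FPKM). H2-T23, H2-T22, H2-K1, Tap1 and Tap2 followed, all with a WT mean below 1 FPKM. Neighbours in this order kept it in 3 of 3 WT libraries, except that H2-Q4 exceeded H2-D1 and H2-T22 exceeded H2-K1 in only 2 of 3. In the CCP1 cKO libraries these same pairs stood the other way round in 3 of 3, and every other pair kept its order. FPKM holds no total count, so the depth of a library is known only relative to the others and values of a few hundredths FPKM, such as those of Tap2, say little about whether a gene is expressed.

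**Figure D1:**
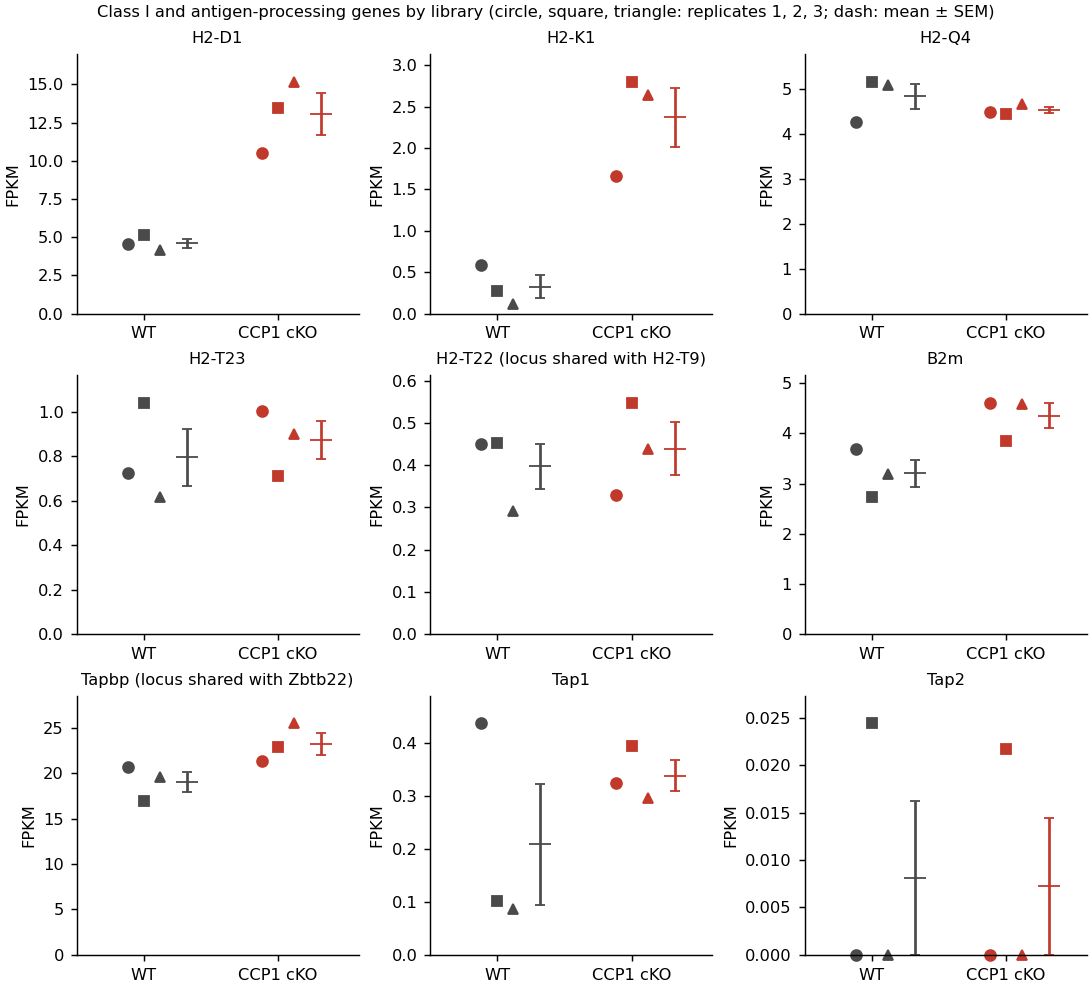
FPKM (vertical axis, linear and starting at 0) of the 9 class I and antigen-processing genes in 3 WT (grey) and 3 CCP1 cKO (red) libraries, with circles, squares and triangles for replicates 1, 2 and 3 and a dash with bars for the mean ± SEM. H2-D1 lay between 4.13 and 5.13 FPKM in WT and between 10.5 and 15.2 FPKM in CCP1 cKO libraries, while the ranges of H2-Q4 overlapped.

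H2-D1 and H2-K1, the classical heavy chains that present peptides to CD8 T cells, had higher values in CCP1 cKO interneurons. H2-D1 (chromosome 17, 35262730 to 35267499, plus strand) had 4.56, 5.13 and 4.13 FPKM in the WT libraries against 10.5, 13.48 and 15.2 FPKM in those of CCP1 cKO. The lowest CCP1 cKO library exceeded the highest WT library, and the ratio of the means was 2.83. On the scale of log2(FPKM + 1), which understates differences of low genes, the difference was 1.32 (SE 0.14, from the limma fit over all loci tested). Its single isoform in the table carries all of this.

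H2-K1 (chromosome 17, 33996017 to 34000347, minus strand) had 0.583, 0.271 and 0.114 FPKM in the WT libraries. The CCP1 cKO libraries had 1.67, 2.80 and 2.65 FPKM. The genotypes did not overlap, and replicate 1 was the lowest CCP1 cKO library for H2-K1 as for H2-D1. The ratio of the means was 7.35, from 0.323 ± 0.138 to 2.37 ± 0.355 FPKM. On the log2(FPKM + 1) scale the difference was 1.35 (SE 0.21), and with 0.1 FPKM added in place of 1 it was 2.67. H2-K1 passed the limit of a mean of 1 FPKM only through its CCP1 cKO values, and its low WT values can rest on few fragments. In the deposited isoform values, 1 per genotype, both isoforms of H2-K1 were higher in CCP1 cKO, from 0.285 to 2.12 FPKM for the major and from 0.0379 to 0.253 FPKM for the minor isoform.

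The nonclassical heavy chains of the same chromosome region had overlapping values in the genotypes. H2-Q4, a chain of the Q group (chromosome 17, 35379617 to 35385290, plus strand), had 4.26, 5.15 and 5.07 FPKM in the WT libraries against 4.47, 4.44 and 4.65 FPKM in those of CCP1 cKO. All CCP1 cKO values fell inside the WT range, and the log2 difference was -0.08 (SE 0.09). H2-T23 encodes Qa-1, which displays leader peptides of classical heavy chains to natural killer cells (chromosome 17, 36029773 to 36032855, minus strand). It had 0.726, 1.04 and 0.618 FPKM in WT against 1.01, 0.712 and 0.902 FPKM in CCP1 cKO, which overlap. H2-T22, whose product is a ligand of some gamma-delta T cells (chromosome 17, 36037128 to 36042747, minus strand), shares its locus in the table with H2-T9. That locus had 0.449, 0.452 and 0.290 FPKM in WT against 0.330, 0.548 and 0.438 FPKM in CCP1 cKO. These ranges overlap as well, and neither H2-T23 nor H2-T22 reached the limit of a mean of 1 FPKM for the test.

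Sums and shares of the 5 heavy chains among the 9 genes are a description. They include H2-D1 and H2-K1, which were chosen for their difference, so a shift between the genotypes follows from that choice. Other class I heavy chain genes described below, such as Cd1d1 and H2-T10, are not part of the sum. The summed FPKM of the 5 heavy chains was 10.2 to 12.04 in WT and 18.0 to 23.8 in CCP1 cKO libraries. H2-D1 made up 40.4% to 43.1% of this sum in WT and 58.4% to 63.7% in CCP1 cKO, and H2-K1 1.11% to 5.51% in WT and 9.28% to 12.7% in CCP1 cKO. The share of H2-Q4 was 40.3% to 49.6% in WT and 19.5% to 24.9% in CCP1 cKO, although its own FPKM overlapped. Within a library, H2-D1 stood at 0.815 to 1.07 times H2-Q4 in WT and at 2.35 to 3.26 times in CCP1 cKO. H2-K1 stood at 0.0275 to 0.128 times H2-D1 in WT and at 0.159 to 0.208 times in CCP1 cKO. These ratios do not depend on a scaling factor per library, but the class I genes share near-identical stretches, and FPKM does not show how fragments that match several of them were divided.

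**Figure D2:**
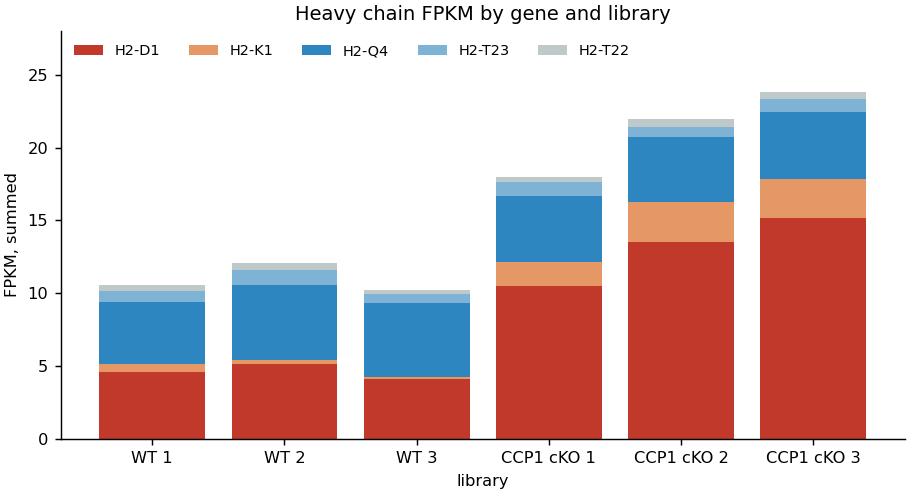
Summed FPKM of the 5 heavy chain genes (vertical axis) in each of the 6 libraries (horizontal axis), with 1 colour per gene. The sum is 10.2 to 12.04 FPKM in WT and 18.0 to 23.8 FPKM in CCP1 cKO libraries, and the H2-Q4 segment is of like height in all.

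B2m, the light chain of class I molecules (chromosome 2, 122147686 to 122153083, plus strand), had 3.69, 2.74 and 3.19 FPKM in the WT libraries. The CCP1 cKO libraries had 4.61, 3.86 and 4.59 FPKM. The ranges did not overlap, but the highest WT library (3.69 FPKM) lay close to the lowest CCP1 cKO library (3.86 FPKM). The ratio of the means was 1.36, and the log2 difference was 0.35 (SE 0.12). H2-D1 stood at 1.24 to 1.87 times B2m in WT and at 2.28 to 3.49 times in CCP1 cKO libraries. The sum of the 5 heavy chains against B2m was 2.87 to 4.40 in WT and 3.90 to 5.70 in CCP1 cKO, which overlap. B2m is the only one of the 9 genes outside chromosome 17.

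Tap1 and Tap2, the subunits of the peptide transporter, were low in all libraries. Tap1 (chromosome 17, 34187553 to 34197225, plus strand) had 0.437, 0.101 and 0.0876 FPKM in WT against 0.323, 0.394 and 0.296 FPKM in CCP1 cKO. WT replicate 1 was the highest of all and the other WT libraries were the lowest, so the genotypes overlapped. Tap2 (chromosome 17, 34203527 to 34216321, plus strand) had 0.0244 FPKM in WT replicate 2 and 0.0217 FPKM in CCP1 cKO replicate 2 and was listed at 0 in the other libraries.

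Tapbp encodes tapasin, and its locus (chromosome 17, 33915899 to 33929292, plus strand) also carries Zbtb22, a zinc finger gene, so that the values per library are those of both genes together. The locus had 20.6, 16.9 and 19.5 FPKM in WT against 21.3, 22.8 and 25.5 FPKM in CCP1 cKO. The genotypes were close but did not overlap, with a ratio of the means of 1.22 and a log2 difference of 0.28 (SE 0.10). The authors' values per genotype for the isoforms of the locus split it. The 7 isoforms of Tapbp summed to 5.002 FPKM in WT against 5.07 FPKM in CCP1 cKO, or 26.3% and 21.8% of the locus. The single Zbtb22 isoform had 14.0 FPKM in WT against 18.1 FPKM in CCP1 cKO. By these values, the higher level of the locus in CCP1 cKO sat in the Zbtb22 isoform. Single Tapbp isoforms went in both directions, for example from 1.57 FPKM in WT to 0.165 FPKM in CCP1 cKO and from 0.332 to 0.875 FPKM. Lost decimal points of these values were restored through the sum of the locus, and how well fragments were divided among the isoforms was not tested. The isoform table gives 1 value per genotype, with no error.

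**Figure D3:**
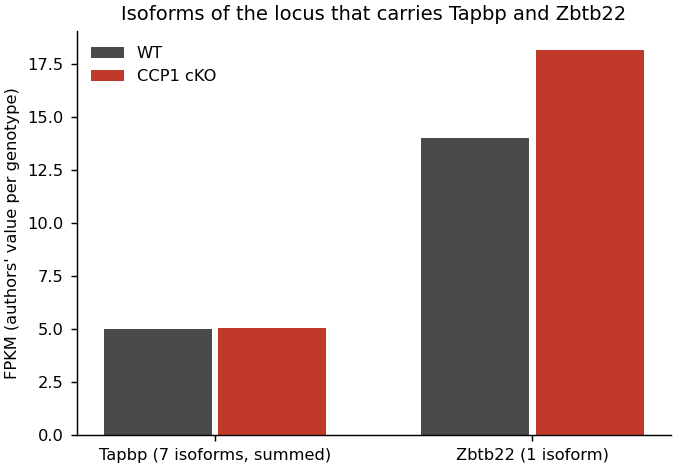
The authors' FPKM per genotype (vertical axis, from 0) for the isoforms of the locus that holds Tapbp and Zbtb22, with WT in grey and CCP1 cKO in red and no error bars because 1 value per genotype is given. The Tapbp isoforms sum to 5.002 and 5.07 FPKM and the Zbtb22 isoform has 14.0 and 18.1 FPKM.

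Counted together, 5 of the 9 genes (H2-D1, H2-K1, H2-Q4, B2m and Tapbp) had a mean of at least 1 FPKM and entered the fit over 13200 loci. In that fit 12 loci, or 0.0909%, had an adjusted p under 0.05 by limma, and 1 of the 9 genes, H2-D1, was among them. H2-D1, H2-K1, B2m and the Tapbp locus had no overlap between the genotypes, all higher in CCP1 cKO, where 9.8% of all loci tested did not overlap and 3.98% were higher without overlap. Because the genes were chosen from this comparison, nothing is read from these counts. With any 1 of the WT libraries, CCP1 cKO replicate 2 or CCP1 cKO replicate 3 left out, 0 of the 9 genes were called. The other 5 genes overlapped. The targeted gene Agtpbp1 (chromosome 13, 59448981 to 59557361) had 20.0, 18.9 and 18.1 FPKM in WT against 9.68, 10.08 and 9.56 FPKM in CCP1 cKO, a log2 difference of -0.89 (SE 0.06, adjusted p = 0.00449 by limma). Without CCP1 cKO replicate 3 it was -0.88 with an adjusted p of 0.0585 by limma. The p-values here set a difference against the variation between these libraries, moderated by limma across all loci tested. They take in no other source of variation.

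Profiles over the 6 libraries were compared by the root mean square distance between log2(FPKM + 1) values centred on their own mean. It was 0.16 between H2-D1 and H2-K1, which were both chosen for a difference between the genotypes, so that a small distance is largely set by the choice. Among all other named loci tested, the 5 closest to H2-D1 were Zfp710 (0.25), Pisd-ps1 (0.28), 2410018L13Rik (0.32), Rps4y2 (0.34) and Xlr3b (0.35). The 5 closest to H2-K1 were Zfp710 (0.20), Pisd-ps1 (0.29), Xlr3b (0.31), Ttc30b (0.32) and Gm10653 (0.34). None of these lies on chromosome 17. Zfp710, a zinc finger gene, had 0.261, 0.207 and 0.119 FPKM in WT against 1.22, 3.69 and 2.44 FPKM in CCP1 cKO. As for H2-K1, CCP1 cKO replicate 1 was the lowest of its genotype and WT replicate 3 the lowest of all. These genes were picked for their likeness, so their own differences are not a test either.

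None of the other listed genes of antigen presentation that were tested passed. Of 141 further genes in 9 lists, 59 were tested. The lists hold genes of the class I pathway, its regulators and receptors and MHC class II. By limma, 0 of the 59 had an adjusted p under 0.05, against 12 of 13200 loci (0.0909%). At so low a share, little can be read from 0 among 59. The 141 do not include Calr, Psmb10, Irf9, Psme3, H2-T9 and Klra1, whose loci carry another gene, or H2-Q5, H2-Q9, Pirb and Ifi27, which were not found. The smallest adjusted p was 0.976, 1 of the 59 (1.69%) had an unadjusted p under 0.05, against 4.62% of all loci, and 2 (3.39%) did not overlap, against 9.8% of all loci. Their log2 differences ran from -0.29 to 0.30, while those of all loci tested had a median of -0.02.

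**Figure D4:**
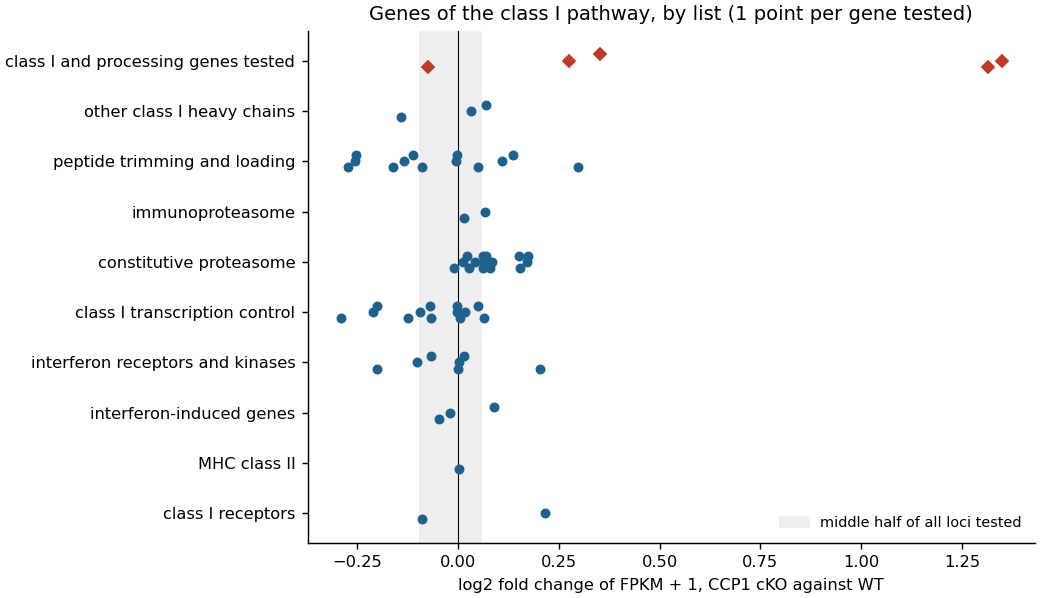
Log2 fold change of FPKM + 1 between CCP1 cKO and WT (horizontal axis) for each tested gene of the class I pathway, by list (vertical axis), with the 5 tested class I and processing genes as red diamonds and the band from the first to the third quartile of all loci in grey. The diamond of Tapbp is that of the locus shared with Zbtb22. The 59 other pathway genes lie between -0.29 and 0.30, and H2-D1 and H2-K1 lie at 1.32 and 1.35.

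Among 24 other class I heavy chain genes, 3 were tested, with 0 higher, 0 lower and a median log2 difference of 0.03. Cd1d1, which presents lipids, was the highest, with 17.3, 20.0 and 21.4 FPKM in WT against 21.0, 22.6 and 18.3 FPKM in CCP1 cKO. H2-T10, of the same bundle as H2-T22 and H2-T23, had 5.27, 4.74 and 4.88 FPKM in WT against 5.22, 5.01 and 5.06 FPKM in CCP1 cKO. H2-M5, with a mean of 1.69 FPKM, had a log2 difference of -0.14 (SE 0.16, adjusted p = 0.976 by limma). The ranges of all 3 overlapped. Of the other 21, none had a mean above 0.565 FPKM, and 8 were listed at 0 in every library. Only H2-Q7 among them had no overlap between the genotypes and was lower in CCP1 cKO. It had 0.274, 0.330 and 0.280 FPKM in WT against 0.0987, 0.146 and 0.162 FPKM in CCP1 cKO, values that can rest on few fragments.

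Peptide trimming and loading genes (13 of 15 tested, 0 called in either direction, median -0.09) were abundant. The chaperone Hspa5 was the highest, at a mean of 99.2 FPKM over the 6 libraries. The smallest unadjusted p in this list belonged to Npepps, a cytosolic aminopeptidase (-0.25, SE 0.13), Pdia3, the disulfide isomerase of the peptide loading complex (-0.25, SE 0.13), and Sec61g, a subunit of the translocon (0.30, SE 0.16), all with an adjusted p of 0.976 by limma. Erap1, the aminopeptidase that trims class I peptides in the endoplasmic reticulum, stayed between 0.115 and 0.255 FPKM in every library.

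The proteasome supplies the peptides. The constitutive proteasome genes (15 of 15 tested, 0 called, median 0.06) were abundant, and Psmb4 had the highest mean, 182 FPKM. Psmb3, Psmb4 and Psmb6 had log2 differences of 0.15, 0.17 and 0.15, each with an adjusted p of 0.976 by limma. Of 4 immunoproteasome genes, 2 were tested and 0 called. Psme1 and Psme2, the subunits of the PA28 activator, had log2 differences of 0.01 and 0.07. The interferon-induced catalytic subunits Psmb8 and Psmb9 reached at most 0.200 and 0.151 FPKM in any library, and each was listed at 0 in some.

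Regulators of class I transcription (13 of 20 tested, median -0.07) included 0 genes called in either direction. Stat2, which carries type I interferon signals to the nucleus, had 4.40, 5.04 and 5.196 FPKM in WT against 4.21, 3.89 and 4.12 FPKM in CCP1 cKO. It was lower in each CCP1 cKO library than in each WT library, with a log2 difference of -0.21 (SE 0.09, adjusted p = 0.976 by limma), and it is the 1 gene with an unadjusted p under 0.05. Creb1, a factor of the X2 element, was likewise lower without overlap (-0.20, SE 0.10), and Nfya, a subunit of the CCAAT-binding factor, overlapped (-0.29, SE 0.18). Nlrc5, the class I transactivator, had 0.149, 0.0511 and 0.0492 FPKM in WT against 0.136, 0.0682 and 0.0569 FPKM in CCP1 cKO, which overlap.

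Interferon receptors and their kinases were all measured (7 of 7 tested, 0 called, median 0.00), with log2 differences of -0.20 for Jak1, -0.10 for Jak2 and 0.20 for Ifngr1, a chain of the interferon gamma receptor. Of 32 interferon-induced genes, 3 were tested and 0 called, with a median of -0.02. These were Eif2ak2, the kinase PKR (0.09, SE 0.18), Ifit2 (-0.05, SE 0.12) and the RNA editing enzyme Adar (-0.02, SE 0.07), of which Adar was the highest at 18.1 FPKM. The other 29 had means of at most 0.853 FPKM, that of Isg15.

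Of 10 MHC class II genes, only H2-DMa, whose product loads peptides onto class II molecules, was tested, with a log2 difference of 0.00 (SE 0.16, adjusted p = 0.999 by limma). The other 9 had means of at most 0.195 FPKM. Among them Cd74 had 0.0552, 0.113 and 0.0360 FPKM in WT against 0.196, 0.224 and 0.213 FPKM in CCP1 cKO, without overlap. H2-DMb2, below 0.07 FPKM in every library, was also higher in CCP1 cKO without overlap, and the rest overlapped. Such values can rest on few fragments. Of 14 genes of class I receptors and partners, Tfrc (0.22, SE 0.10) and Lrp1 (-0.09, SE 0.10) were tested and 0 called, each with an adjusted p of 0.976 by limma.

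Position was the next comparison, because 8 of the 9 genes lie on chromosome 17. Within the H2 region, from 1 Mb before the first to 1 Mb after the last of these 8 (32915899 to 37042747), 104 other loci were tested. The genotypes did not overlap at 22 of them (21.2%), 12 higher and 10 lower in CCP1 cKO, against 9.47% of 12531 loci on the other chromosomes and 14.3% of 560 loci on the rest of chromosome 17. An unadjusted p under 0.05 was reached by 14.4% of the 104, by 9.11% on the rest of chromosome 17 and by 4.31% on the other chromosomes. Among named loci only, a comparison chosen after the data were seen, the shares without overlap were 20.2% of 99 in the region and 9.68% of 11101 on the other chromosomes. Neighbouring loci are not independent, so these shares have no test. After rescaling to TPM, also chosen after the data were seen, the count in the region was 9 (8.65%), against 4.30% of all loci.

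By limma, 1 neighbour passed an adjusted p of 0.05. It has no gene name in the table (XLOC_011747, chromosome 17, 35304967 to 35305151, between H2-D1 and H2-Q4), was listed at 0 in all WT libraries and had 18.4, 68.4 and 56.8 FPKM in those of CCP1 cKO (adjusted p = 0.0107). The locus is so short that such values can rest on few fragments, and the call ended without WT replicate 2, WT replicate 3 or CCP1 cKO replicate 3.

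The named neighbours with the smallest p went in both directions. Vps52, a vesicle tethering gene close to H2-K1, had 18.7, 17.7 and 19.8 FPKM in WT against 26.1, 32.7 and 31.99 FPKM in CCP1 cKO (0.66, SE 0.10, adjusted p = 0.139 by limma). AA388235, also next to H2-K1, had 3.89, 4.08 and 4.79 FPKM in WT against 2.58, 0.220 and 0.550 FPKM in CCP1 cKO (-1.47, SE 0.38, adjusted p = 0.622 by limma). Here too CCP1 cKO replicate 1 stood nearest to WT. Hspa1l, a heat shock protein gene, had 2.61, 2.69 and 3.17 FPKM in WT against 1.47, 1.18 and 1.25 FPKM in CCP1 cKO (-0.73, SE 0.12, adjusted p = 0.176 by limma). Rgl2 had a log2 difference of -0.26, Ppt2 of 0.21 and Wdr46 of 0.30, with adjusted p of 0.474, 0.849 and 0.906 by limma. In all 6 the genotypes did not overlap, and none of the 6 passed. Windows of 0.3 Mb to either side were added after the data were seen. In them, 8 of 23 loci around H2-K1 (34.8%), 5 of 22 around H2-D1 (22.7%) and 1 of 10 around B2m (10%) did not overlap. Over all loci tested the share was 9.8%. The windows are small, and H2-K1 and H2-D1 were chosen for their difference, so nothing is read from these counts.

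**Figure D5:**
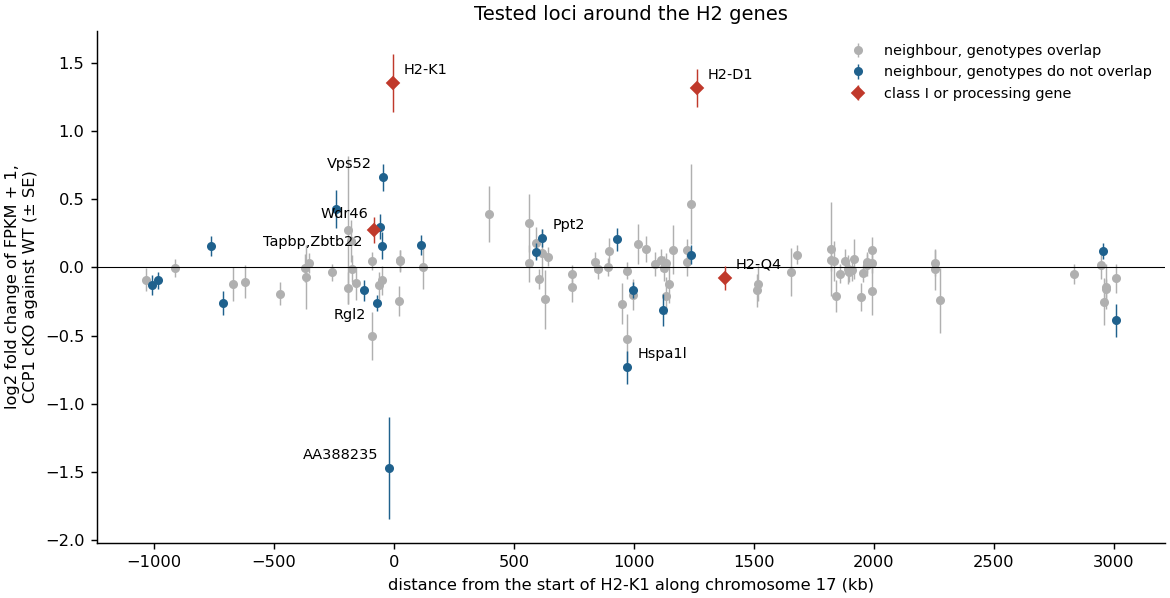
Log2 fold change of FPKM + 1 between CCP1 cKO and WT with its SE (vertical axis) for tested loci around the H2 genes, by distance from the start of H2-K1 (horizontal axis, kb), with neighbours whose genotypes overlap in grey, those without overlap in blue and the class I and processing genes in red. Neighbours without overlap lie on both sides of 0, from AA388235 at -1.47 to Vps52 at 0.66, and XLOC_011747, listed at 0 in WT, is not drawn.

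The sorted cells carried the markers of their lineage, while markers of microglia and endothelial cells were low. All 11 interneuron lineage markers were tested, and Dlx2 was the highest at 173 FPKM. By limma 0 were called, against 0.0909% of all loci, and 0 had an unadjusted p under 0.05, against 4.62%. None of 12 microglia and macrophage markers exceeded a mean of 0.194 FPKM (C1qb), and their summed FPKM was 0.958 to 2.41 in WT and 0.650 to 1.73 in CCP1 cKO libraries. The 9 endothelial markers summed to 1.10 to 1.85 FPKM in WT and 0.508 to 0.862 FPKM in CCP1 cKO, with Cldn5 the highest at a mean of 0.323 FPKM. This sum was lower in each CCP1 cKO library than in each WT library, and its part in the class I values was not tested.

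The summed markers of the other cells overlapped between the genotypes. Lymphocyte markers summed to at most 0.329 FPKM, with 5 of 7 at 0 in every library and Cd79a the highest (0.140 FPKM). Pericyte markers summed to 0.753 to 1.77 FPKM in WT and 0.611 to 0.939 FPKM in CCP1 cKO (highest Pdgfrb, 0.643 FPKM), and meningeal markers to 0.397 to 0.926 and 0.335 to 0.632 FPKM (highest Col1a2, 0.281 FPKM). Red blood cell markers summed to 18.7 to 33.6 and 11.7 to 31.2 FPKM (highest Hbb-y, 11.6 FPKM), and cortical excitatory lineage markers to 10.07 to 42.3 and 15.4 to 31.5 FPKM (highest Neurod6, 6.94 FPKM). Radial glia and cycling markers were high in both genotypes, at 582 to 627 and 534 to 619 FPKM (highest Vim, 173 FPKM), and these levels leave room for other cells beside interneurons. In RNA of a sorted pool, more cells that express a gene and more RNA of it per cell cannot be told apart. For the H2 genes, a difference between the genotypes in how reads align was not tested either.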

How the data were processed

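RNA of 3 WT and 3 CCP1 cKO libraries was sequenced paired-end after ribosomal depletion with a stranded kit. The authors aligned reads to mm10 with Bowtie2 in the Tuxedo workflow and deposited FPKM per library and locus from Cuffdiff. No source used here names the annotation or the program versions. The deposited isoform values hold 1 FPKM per genotype, and decimal points lost there were restored where isoforms sum to their locus within 0.01 FPKM, which failed for H2-Q4 in WT. The deposited fold changes, p-values and q-values of the authors' own comparison were not used.

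The gene symbols were matched to the comma-separated names of each locus, and samples to columns by their titles. Positions of the 9 genes are those of GENCODE M21 on GRCm38, and those of other loci are the deposited ones with 1 added to each start. FPKM is scaled to depth, so absolute depth is unknown. Ratios of values below 0.1 FPKM gave relative depths of 0.72 to 1.13, and FPKM summed to 447510 to 542953 per library.

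Genotypes were compared with limma 3.58.1 in R 4.3.3 (lmFit, eBayes with trend) on log2(FPKM + 1). The 13200 loci that averaged 1 FPKM or more over the 6 libraries were tested, and p-values were adjusted over all of them by Benjamini-Hochberg, with a threshold of 0.05. The procedure was tested on simulated data. Alternatives were pseudocounts of 0.1 and 0.5, no filter, a mean of at least 5 FPKM, equal medians, quantile normalization, rescaling to TPM, no trend, the replicate number as a block, named loci only, the sum of all loci that carry a symbol, margins of 0 and 2 Mb for the region, and each library left out in turn. Genes below the filter were given by values alone. Named beside the 9 genes and Agtpbp1 were, in each list, genes that passed and up to 3 with the smallest unadjusted p, for the region those that passed and up to 6, the 5 closest profiles to H2-D1 and H2-K1, and the highest marker of each list. Hspa5, Psmb4, Erap1, Psmb8, Psmb9, Nlrc5, Isg15, Cd74, H2-DMb2, H2-Q6 and H2-Q7 were named after their values were seen. Of 225 list entries, 214 were used, 4 were not found and 7 shared their locus with another gene. The 9 genes and the lists were chosen with earlier results of these data known. Promoters and motifs were read from RefSeq on GRCm38.p6. Python 3.11.15 with pandas 2.3.3, NumPy 2.4.6 and Matplotlib 3.10.9 did the rest.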

Additional observations from a re-analysis of the deposited data

How the results depend on the processing

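The differences of H2-D1, H2-K1, B2m and the Tapbp locus kept their sign under all alternatives that gave a value. On the log2 scale they ran from 1.21 to 1.47 for H2-D1, from 1.23 to 2.67 for H2-K1, from 0.27 to 0.44 for B2m and from 0.20 to 0.33 for the Tapbp locus, and H2-Q4 ran from -0.15 to -0.04. H2-K1 moved with the pseudocount (2.67 with 0.1 and 1.82 with 0.5) and with TPM (1.84), by the construction of the scale. The 1 call among the 9 genes became 0 with no filter, no trend, the replicate number as a block or named loci only, and 2 with TPM, and it ranged from 0 to 1 with a library left out. Over all loci the 12 calls became 28 with TPM and 1 among named loci, and 5 to 16 with a library left out. In the H2 region the 1 call became 0 with no filter and among named loci and ranged from 0 to 3 with a library left out, and the 22 loci without overlap became 9 with TPM and 23 with equal medians, both added after seeing the data. The causes were not tested. Agtpbp1 ranged from -0.923 to -0.854 with a library left out, and its call ended only without CCP1 cKO replicate 3 (-0.88, adjusted p = 0.0585 by limma). The 9 pathway lists had 0 calls under every alternative, and in the fit over 13200 loci 0.0909% of all loci were called. The correlations of deviations between same-numbered libraries were 0.32, 0.11 and 0.036. Those between libraries of different numbers ran from -0.26 to 0.17, and all that involved a replicate 1 were negative. The numbers were not taken to pair the libraries, but whether same-numbered libraries were processed together was not tested. The replicate block called 16 loci and 0 of the 9 genes. Depth limits what can be said of Tap1, Tap2, H2-T22, H2-T23 and of H2-K1 in WT.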
